A study of Mus musculus with 8 samples.

Results

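The genes described here encode the sarcomeric actins and the proteins that anchor and measure the contractile filaments of heart muscle: Actc1, Acta1, Actn2, Ttn, Myoz2, Ldb3, Nebl, Csrp3, Xirp1 and Mybpc3. They were taken by gene name from the deposited expression table, and all 10 were found among its 54532 genes. The libraries came from MICFs, primary cardiac fibroblasts of the infarct area of adult C57BL/6 mouse hearts, which carried doxycycline-inducible lentiviruses for MGT (Mef2c, Gata4 and Tbx5 on 1 polycistronic construct), for Myocd, for Sall4 and for eGFP, a genotype that the labels call MGTMyoS overexpression. Infected cells were either transplanted into infarcted hearts (in vivo samples) or kept in a culture dish (in vitro samples), and eGFP+ cells were sorted at 1 week (Day 7) and 2 weeks (Day 14), with 2 libraries for each of the 4 groups and 8 in all. The host mice were 8-week-old males and were given doxycycline in their water together with the immunosuppressants tacrolimus, methylprednisolone and mycophenolate mofetil, whereas the culture medium held doxycycline, SB431542 and baricitinib. Place, medium and drugs therefore cannot be told apart wherever in vivo samples are set against in vitro samples. All 4 groups carried the factors, and uninfected cells were not analysed here. Neither the labels nor the methods tie a replicate to an animal or a well, so the p-values measure the spread between these libraries, which may be technical.

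In a sarcomere, thin filaments of actin slide along thick filaments of myosin. Cardiac α-actin (Actc1) is the main actin of adult heart muscle and skeletal α-actin (Acta1) that of skeletal muscle, and both are made in the developing heart. At the Z-disc the actin filaments of neighbouring sarcomeres are crosslinked by α-actinin-2 (Actn2), to which ZASP (Ldb3), myozenin-2 (Myoz2), muscle LIM protein (Csrp3) and nebulette (Nebl) are tethered. Titin (Ttn) is a giant elastic protein that runs from the Z-disc to the M-band, and cardiac myosin-binding protein C (Mybpc3) lies along the thick filament. Xin (Xirp1) is an actin-binding repeat protein of muscle attachment sites. Factors used to turn fibroblasts into cardiomyocyte-like cells act on such genes. MEF2 proteins bind A/T-rich MEF2 boxes, and myocardin acts through serum response factor at CArG boxes.

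Promoters are shown because 4 of the delivered factors can act through the DNA motifs that were searched. RefSeq sequences on GRCm38.p6 matched 9 of the 10 genes, with 14 promoters between them, each taken as the 250 bases before an annotated start; Xirp1 had no entry. Capitals mark a CArG box or a MEF2 box, and in Acta1 also a TATAAA. The Actc1 promoter (chr2:114052876-114053125, minus strand) held a CArG box 47 to 38 bases before the start. That of Acta1 (chr8:123894776-123895025, minus strand) held one at 73 to 64 bases, with a TATAAA at 7 to 2 bases and a CATTCC, the core letters of a TEAD site, at 46 to 41 bases. Those of Mybpc3 (chr2:91117894-91118143, plus strand) and Ttn (chr2:76982548-76982797, minus strand) held a MEF2 box, at 90 to 81 and 166 to 157 bases. Distances count from the RefSeq starts. For Actc1 and Acta1 these differ from the upstream gene ends in the expression table, chr2:114053548 and chr8:123894751. The Actc1 window thus lies inside the span given for that gene.

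Actc1 promoter: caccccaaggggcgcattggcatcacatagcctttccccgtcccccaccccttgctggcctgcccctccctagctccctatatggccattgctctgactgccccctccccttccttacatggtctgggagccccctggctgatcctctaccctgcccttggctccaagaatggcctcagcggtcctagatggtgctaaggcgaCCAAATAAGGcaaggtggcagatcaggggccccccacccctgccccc
Acta1 promoter: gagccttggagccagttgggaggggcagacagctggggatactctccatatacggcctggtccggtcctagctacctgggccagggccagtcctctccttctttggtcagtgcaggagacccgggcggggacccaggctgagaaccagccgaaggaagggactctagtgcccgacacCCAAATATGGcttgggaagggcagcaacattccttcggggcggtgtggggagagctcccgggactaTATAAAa
Mybpc3 promoter: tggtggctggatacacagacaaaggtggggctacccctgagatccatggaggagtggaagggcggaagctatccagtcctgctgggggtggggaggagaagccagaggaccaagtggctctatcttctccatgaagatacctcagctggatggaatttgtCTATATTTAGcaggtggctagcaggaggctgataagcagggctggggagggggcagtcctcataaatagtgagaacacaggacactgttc
Ttn promoter: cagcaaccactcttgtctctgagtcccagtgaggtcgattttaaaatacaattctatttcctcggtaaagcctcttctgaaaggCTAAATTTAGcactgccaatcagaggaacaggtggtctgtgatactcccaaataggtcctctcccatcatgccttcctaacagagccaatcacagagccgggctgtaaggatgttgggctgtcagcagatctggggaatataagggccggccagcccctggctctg

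Over both strands, a CArG box was found in promoters of 4 of the 9 genes (Actc1, Acta1, Ldb3 and Nebl), or 5 of their 14 promoters. It was in 1.47% of the 32851 mouse promoters of the same length. A MEF2 box was found in 3 of the 9 (Ttn, Myoz2 and Mybpc3), or 3 of the 14 promoters, and in 2.92% of all promoters. A gene was counted if any of its promoters held the motif, whereas the percentages count single promoters. No promoter of the 9 genes held both boxes. In Nebl only 1 of its 4 promoters had the box, and the 2 promoters of Ldb3 overlap and share 1 site. Shorter motifs were common in all promoters: AGATAA, the core of a GATA site, was in 9.99% of them and in promoters of 1 of the 9 genes, AGGTGT, a T-box core, in 11.8% and 2 of the 9, CATTCC in 12.6% and 2 of the 9, and TATAAA in 12.4% and 1 of the 9. These letters are a description of the windows and say nothing of binding in these cells.

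Actc1 and Acta1 encode nearly the same protein from different codons, which bears on whether reads can be assigned to one or the other. The first 60 coding bases are shown for the pair and for Acta2, the smooth muscle α-actin, from GENCODE vM21 on GRCm38. Capitals in the Actc1 line mark positions where either of the other two differs, and in the other lines positions that differ from Actc1. They lie at chr2:114051972-114052031, chr8:123893638-123893697 and chr19:34252494-34252553, all on the minus strand.

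Actc1 coding start: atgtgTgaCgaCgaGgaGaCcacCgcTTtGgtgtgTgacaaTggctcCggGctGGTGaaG
Acta1 coding start: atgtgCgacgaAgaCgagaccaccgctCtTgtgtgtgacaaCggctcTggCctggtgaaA
Acta2 coding start: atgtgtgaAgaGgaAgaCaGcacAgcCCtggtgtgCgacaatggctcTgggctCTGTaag

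Within this stretch Acta1 differed from Actc1 at 9 bases and Acta2 at 14. Over the 1131 coding bases Actc1 and Acta1 were 86.3% identical with 155 differences, and their longest identical run was 29 bases. No 50-base window of the Actc1 transcript occurred in any of the other 5 actins. In Acta1, 28 of 1397 such windows also occurred in Actb or Actg1, and none of 100 bases did. A read of that length within Actc1 thus matches no other actin exactly, and the same holds for most of Acta1.

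Fragments on genes ranged from 12304242 to 14546904 per library, with a median of 12919718. Levels are given as the deposited FPKM (fragments scaled to gene length and library size), and the whole fragments behind each value were recovered from them. Comparisons used limma on log2(FPKM + 0.1), on the 15708 genes with 2 or more libraries at an FPKM of 0.5 or above. A gene was called changed where its adjusted p was under 0.01 and its fold change, in either direction, over 1 on the log2 scale. Of the 10 genes 7 passed this filter. Actc1 and Ldb3 reached an FPKM of 0.5 in all 8 libraries and Acta1 in 7, but Csrp3 and Mybpc3 passed only through the 4 in vitro libraries, Actn2 only through the in vitro libraries of 2 weeks and Xirp1 only through the 4 in vivo libraries. Such genes could pass only by being higher on one side, so the counts below are descriptions. Ttn, Nebl and Myoz2 did not pass, and their differences come from limma voom on the recovered fragments (15768 genes with at least 10 fragments in at least 2 libraries), a fit added after their values had been seen. In bulk RNA from sorted cells, fewer cells that make a transcript and less of it per cell cannot be told apart.

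**Figure D1:**
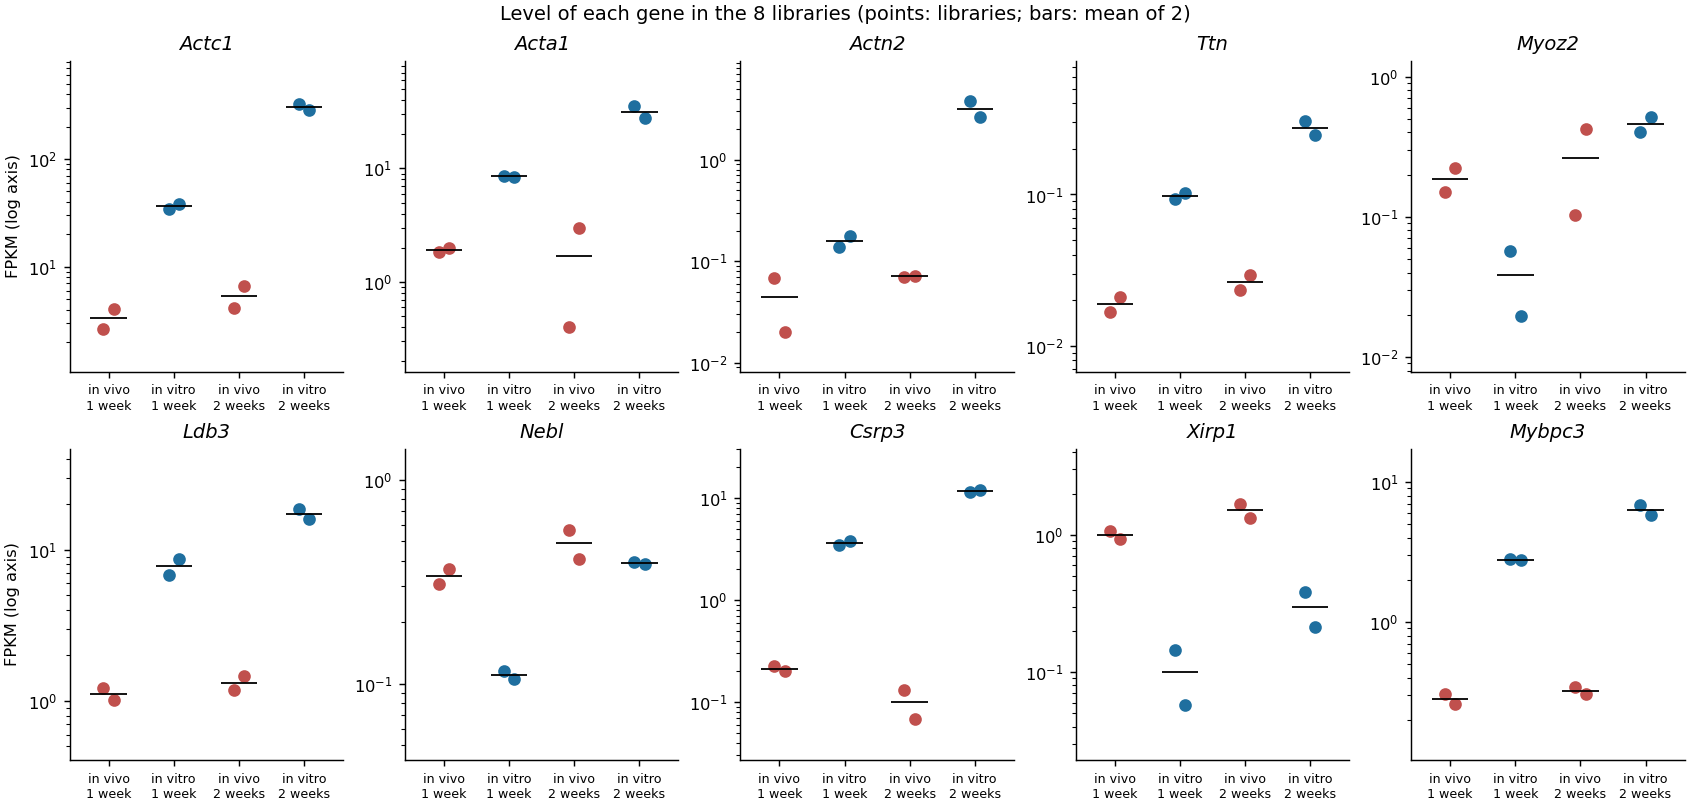
FPKM of each of the 10 genes (log axis, a separate scale for each gene) in the 8 libraries; points are libraries, horizontal bars the mean of 2, red for in vivo and blue for in vitro. Actc1, Acta1, Actn2, Ttn, Ldb3, Csrp3 and Mybpc3 were higher in both in vitro libraries than in both in vivo libraries at each week, Xirp1 was the reverse, Nebl was higher in both in vivo libraries at each week but by little at 2 weeks, and Myoz2 was higher in vivo at 1 week and overlapped at 2 weeks.

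The 10 genes did not move together: most were far lower in the transplanted cells than in the cultured cells, and Xirp1 was higher. Nebl was higher in the transplanted cells at 1 week and by little at 2 weeks, and Myoz2 was called at neither week. At 1 week Actc1, Ldb3, Csrp3 and Mybpc3 were called lower in vivo (4 of the 7 tested) and Xirp1 was called higher, beside 5.07% of all tested genes called lower and 7.79% called higher. At 2 weeks Acta1 and Actn2 were called lower as well, which gave 6 of 7 lower and 1 higher, beside 8.05% lower and 9.02% higher over all tested genes. The median log2 fold change of the 7 tested genes was -2.69 at 1 week and -4.25 at 2 weeks, and that of all tested genes was -0.0058 and -0.0034. Csrp3, Mybpc3 and Actn2 could be tested only by being higher in vitro, and Xirp1 only by being higher in vivo. The medians of the 7 are therefore descriptions as well, and they leave out Ttn, Nebl and Myoz2.

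Actc1 (ENSMUSG00000068614, chr2:114047282-114053548, minus strand) had the highest FPKM of the 10 in all 8 libraries. It stood at an FPKM of 2.64 and 4.08 in vivo and at 34.7 and 38.0 in vitro at 1 week. At 2 weeks it stood at 4.11 and 6.66 in vivo and at 324 and 288 in vitro. Every in vitro library lay above every in vivo library, and the order of the groups was in vitro at 2 weeks, in vitro at 1 week, in vivo at 2 weeks and in vivo at 1 week. The mean was 10.8-fold lower in vivo at 1 week (log2 fold change -3.43, SE 0.26, adjusted p = 8.5e-05) and 56.9-fold lower at 2 weeks (-5.84, SE 0.26, adjusted p = 6.5e-06). The in vivo groups, neighbours in that order, were not called different (log2 fold change 0.66, adjusted p = 0.13).

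Acta1 (ENSMUSG00000031972, chr8:123891769-123894751, minus strand) showed the same order of in vitro over in vivo at a lower level. Its FPKM at 1 week was 1.83 and 2.0 in vivo and 8.58 and 8.41 in vitro. At 2 weeks it was 0.404 and 3.01 in vivo and 35.3 and 27.8 in vitro. Groups did not overlap at either week, but the 2 in vivo libraries of 2 weeks, with 7 and 51 fragments, lay further apart than any other pair for this gene. The mean was 18.5-fold lower in vivo at 2 weeks (log2 fold change -4.65, SE 0.72, adjusted p = 0.0018). This call was lost when either in vitro library of 2 weeks was left out (adjusted p = 0.0136 without replicate 1 and 0.0112 without replicate 2). At 1 week the mean was 4.43-fold lower (log2 fold change -2.09, SE 0.72) and missed the threshold, with an adjusted p of 0.053. All 4 groups share 1 estimate of the spread, and without replicate 1 or replicate 2 of the in vivo samples at 2 weeks the same difference at 1 week had an adjusted p of 9.2e-05 or 1.0e-04.

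The balance between the actins differed between the groups. The ratio of Actc1 to Acta1 FPKM was 1.44 and 2.04 in vivo and 4.04 and 4.52 in vitro at 1 week. At 2 weeks it was 9.19 and 10.3 in vitro, while the 2 in vivo libraries gave 10.2 and 2.22, the first of them on 7 fragments of Acta1. In vitro the ratio was higher in both libraries of 2 weeks than in both of 1 week, and in vivo its value at 2 weeks rested on which library was read. Actc1 held 0.147% and 0.227% of the summed FPKM of the 6 actin genes in vivo at 1 week, 0.323% and 0.490% in vivo at 2 weeks, 1.80% and 1.95% in vitro at 1 week and 12.8% and 11.6% in vitro at 2 weeks. The cytoplasmic actins Actb and Actg1 and the smooth muscle actins Acta2 and Actg2 made up the rest with Acta1. Even in vitro at 2 weeks Acta2, a marker of activated fibroblasts as well as of smooth muscle, remained the leading muscle actin, at 69.0% and 70.8% of the FPKM of the 4 muscle actins against 27.5% and 25.9% for Actc1.

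**Figure D2:**
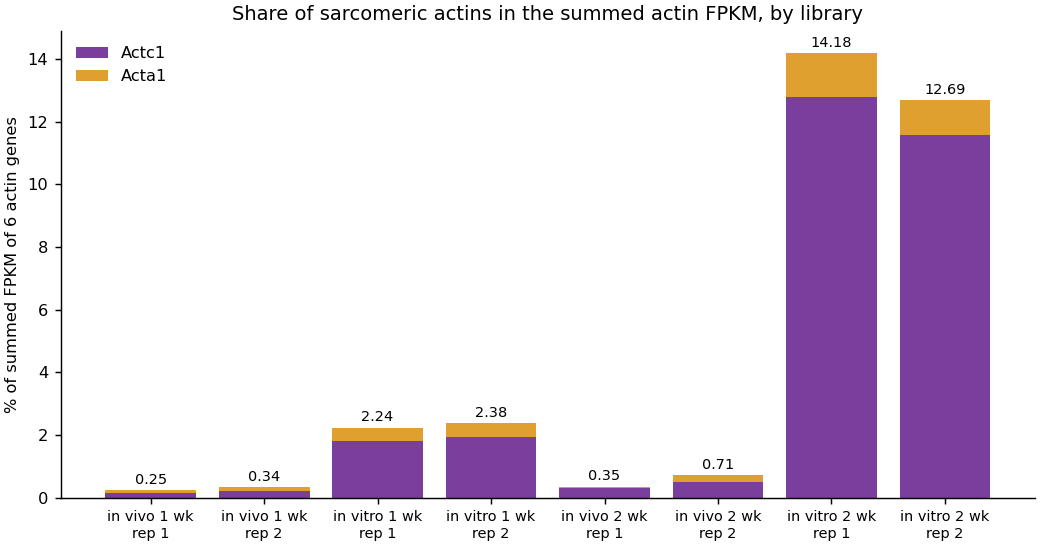
Share of Actc1 (purple) and Acta1 (orange) in the summed FPKM of the 6 actin genes, in percent, for each of the 8 libraries; the number above a bar is the sum of both. The share of Actc1 was at most 0.490% in the 4 in vivo libraries, 1.80% and 1.95% in vitro at 1 week, and 12.8% and 11.6% in vitro at 2 weeks.

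None of the 4 other actins was called at either week by limma, although at an adjusted p under 0.01 alone Acta2 and Actg1 at 1 week, and Acta2, Actb and Actg1 at 2 weeks, were different by less than the fold required. The log2 fold change of Acta2 was -0.43 at 1 week and -0.95 at 2 weeks, that of Actb -0.20 and -0.98, that of Actg1 0.45 and -0.29 and that of Actg2 0.19 and 0.60. Each was smaller in size than that of Actc1 at the same week.

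Actn2 (ENSMUSG00000052374, chr13:12269426-12340760, minus strand), the Z-disc crosslinker and a usual marker of reprogrammed cells, was close to undetected outside the oldest cultures. Its FPKM at 1 week was 0.0675 and 0.0202 in vivo, from 3 and 1 fragments, and 0.137 and 0.176 in vitro, from 8 and 10 fragments. At 2 weeks it was 0.0700 and 0.0716 in vivo, from 3 fragments each, and 3.75 and 2.64 in vitro, from 197 and 136 fragments. Only the in vitro libraries of 2 weeks held more than 10 fragments. The mean of Actn2 was 45.1-fold lower in vivo at 2 weeks (log2 fold change -4.25, SE 0.41, adjusted p = 2.0e-04). From the fragments alone, the 95% exact binomial interval of the in vitro to in vivo ratio was 20.5 to 124, which covers counting error only. The 1-week difference of -0.85 was not called (adjusted p = 0.14), and with 3 and 1 fragments in vivo a difference of this size was hardly detectable.

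Among the other Z-disc proteins, Ldb3 and Csrp3 were lower in vivo. Ldb3 (ENSMUSG00000021798, chr14:34526603-34588682, minus strand), a PDZ and LIM protein, had an FPKM of 1.22 and 1.02 in vivo and 6.86 and 8.70 in vitro at 1 week. At 2 weeks it had 1.18 and 1.45 in vivo and 18.5 and 16.1 in vitro. It was thus well detected in all 8 libraries, with at least 81 fragments in each, and 6.96-fold lower in vivo at 1 week (log2 fold change -2.69, SE 0.17, adjusted p = 3.7e-05) and 13.2-fold lower at 2 weeks (-3.63, SE 0.17, adjusted p = 8.0e-06).

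Csrp3 (ENSMUSG00000030470, chr7:48830398-48848033, minus strand), a LIM protein of the Z-disc and nucleus of striated muscle, had the greatest ratio of mean FPKM of the 10 at each week. At 2 weeks, however, the log2 fold change was within the SE of that of Actc1, and the counting interval of Actn2 overlapped that of Csrp3. Its FPKM was 0.224 and 0.201 in vivo and 3.50 and 3.81 in vitro at 1 week, and 0.133 and 0.0678 in vivo and 11.5 and 12.1 in vitro at 2 weeks. In vivo it was near the limit of detection, with 7 fragments in each library of 1 week and 4 and 2 fragments in those of 2 weeks. The mean was 17.2-fold lower in vivo at 1 week (log2 fold change -3.59, SE 0.20, adjusted p = 2.5e-05) and 118-fold lower at 2 weeks (-5.91, SE 0.20, adjusted p = 2.5e-06). From the fragments alone, the 95% exact binomial interval of the in vitro to in vivo ratio at 2 weeks was 53.7 to 321, which covers counting error only.

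Nebl and Myoz2, also of the Z-disc, were scarce and differed from that course. Nebl (ENSMUSG00000053702, chr2:17343909-17731464, minus strand) had an FPKM of 0.308 and 0.363 in vivo and 0.115 and 0.105 in vitro at 1 week, and 0.564 and 0.410 in vivo and 0.394 and 0.386 in vitro at 2 weeks. By voom it was 3.04-fold higher in vivo at 1 week (log2 fold change 1.59, SE 0.32, adjusted p = 0.0010), beside 15.0% of all genes called in either direction by that fit. At 2 weeks the difference was 0.30 with a 95% confidence interval of -0.16 to 0.77, and was not called. On log2 FPKM with no filter, the difference of Nebl at 1 week was 1.05 and was not called (adjusted p = 0.059). Myoz2 (ENSMUSG00000028116, chr3:123006206-123035015, minus strand), which binds calcineurin, had 6 and 10 fragments in vivo and 3 and 1 in vitro at 1 week, and 4 and 16 in vivo and 19 and 24 in vitro at 2 weeks. Its FPKM ran from 0.0196 to 0.516 over the 8 libraries, and neither difference was called (2.15 at 1 week, adjusted p = 0.069, and -1.05 at 2 weeks, adjusted p = 0.15, by voom).

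Of the filament proteins, Mybpc3 (ENSMUSG00000002100, chr2:91118144-91136516, plus strand) followed Ldb3 closely. Its FPKM was 0.308 and 0.258 in vivo and 2.81 and 2.77 in vitro at 1 week, and 0.340 and 0.304 in vivo and 6.88 and 5.78 in vitro at 2 weeks. In vivo it had 14 to 16 fragments in each library, against at least 172 in vitro. The mean was 9.85-fold lower in vivo at 1 week (log2 fold change -2.92, SE 0.18, adjusted p = 3.2e-05) and 19.6-fold lower at 2 weeks (-3.92, SE 0.18, adjusted p = 7.0e-06).

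Ttn (ENSMUSG00000051747, chr2:76703980-76982547, minus strand) was the lowest of the 10 per kilobase in 4 of the 8 libraries, although its length of 116825 bases gave it more fragments than Actn2, Myoz2 or Csrp3 in every in vivo library. Its FPKM was 0.0168 and 0.0210 in vivo and 0.0929 and 0.103 in vitro at 1 week, and 0.0235 and 0.0295 in vivo and 0.304 and 0.247 in vitro at 2 weeks. Those values stand for 23 and 32, 167 and 179, 31 and 38, and 492 and 393 fragments, so that the groups were well apart in counts. By voom Ttn was 5.16-fold lower in vivo at 1 week (log2 fold change -2.34, SE 0.31, adjusted p = 3.1e-05) and 10.4-fold lower at 2 weeks (-3.37, SE 0.27, adjusted p = 1.9e-07), beside 19.5% of all genes called in either direction at 2 weeks. On log2(FPKM + 0.1) its level lies under the pseudocount in vivo, and with no filter the difference at 1 week shrank to -0.73 and was not called (adjusted p = 0.092).

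Xirp1 (ENSMUSG00000079243, chr9:120013755-120023598, minus strand) went the other way. Its FPKM was 1.07 and 0.933 in vivo and 0.145 and 0.0573 in vitro at 1 week, and 1.68 and 1.33 in vivo and 0.384 and 0.214 in vitro at 2 weeks. Each in vivo library had at least 71 fragments and no in vitro library more than 31. The mean was 9.91-fold higher in vivo at 1 week (log2 fold change 2.49, SE 0.36, adjusted p = 0.0017) and 5.05-fold higher at 2 weeks (2.04, SE 0.36, adjusted p = 0.0033). Both calls were lost without either in vivo library of the week or without in vitro replicate 2 of the week, where the adjusted p was 0.0108 to 0.0154 for 1 week and 0.0130 to 0.0237 for 2 weeks, and the log2 fold changes fell under 1 with a pseudocount of 1 (0.86 and 0.95). Xirp1 lies within the span of Cx3cr1 on the same strand, a chemokine receptor gene of macrophages that was also higher in vivo (log2 fold change 1.40 at 1 week and 1.37 at 2 weeks, both called). None of the 3 annotated Cx3cr1 transcripts has an exon base in the exons of Xirp1, and whether unspliced Cx3cr1 reads add to it was not tested. Xirp2, the paralog of Xirp1, was under the FPKM filter, with 22 and 35 fragments in vivo and 3 and 7 in vitro at 1 week and 22 and 30 in vivo and 11 and 6 in vitro at 2 weeks (voom log2 fold changes 2.78 and 1.89, adjusted p = 0.0019 and 0.0082). Of the other genes of the table whose span overlaps 1 of the 10, none had more than 1 fragment in any library.

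**Figure D3:**
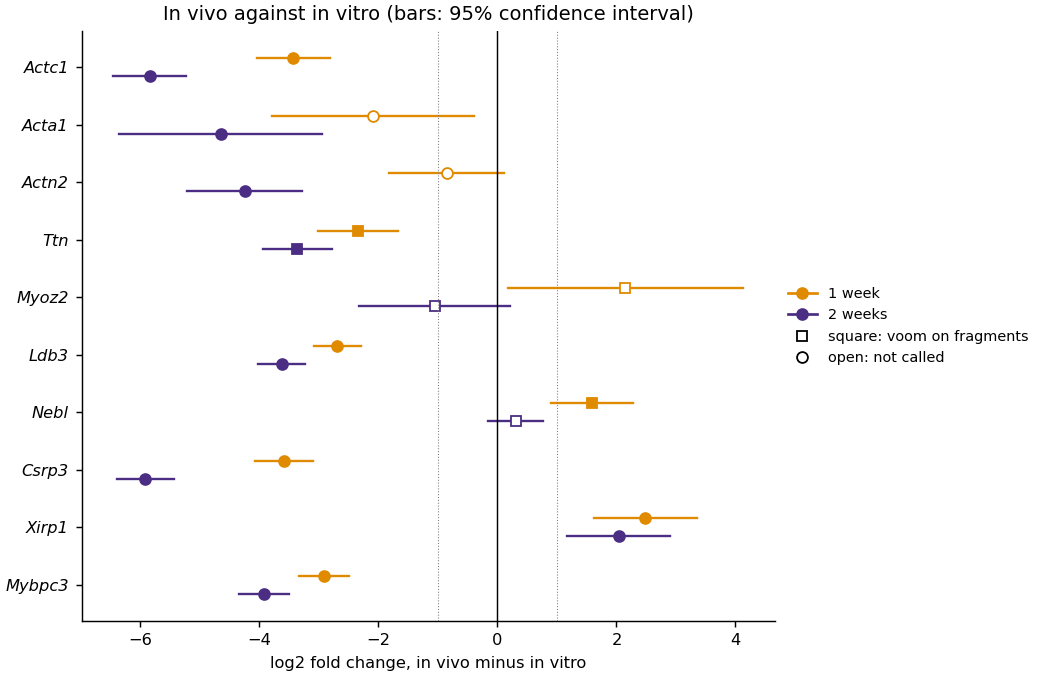
Log2 fold change of in vivo minus in vitro at 1 week (orange) and 2 weeks (purple) for the 10 genes, with 95% confidence intervals; circles are from limma on log2(FPKM + 0.1), squares from limma voom on fragments, and open symbols were not called. Csrp3 and Actc1 had the lowest values at 2 weeks (-5.91 and -5.84), and Xirp1 stood above 2 at both weeks (2.49 and 2.04).

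Levels at 2 weeks were then compared with those at 1 week within each setting. In vitro, Actc1, Actn2, Ldb3, Csrp3 and Mybpc3 were called higher at 2 weeks than at 1 week (5 of the 7 tested, and 0 lower), beside 2.76% of all tested genes called higher and 1.05% lower. Actn2 passed the FPKM filter only through the in vitro libraries of 2 weeks. It could thus be tested only by being higher there, and these counts are descriptions. Actn2 was 20.4-fold higher (log2 fold change 3.67, SE 0.41, adjusted p = 0.0017) and Actc1 8.42-fold higher (3.07, SE 0.26, adjusted p = 6.9e-04). Csrp3 was 3.23-fold higher (log2 fold change 1.67, adjusted p = 0.0025), Mybpc3 2.27-fold (1.15, adjusted p = 0.0055) and Ldb3 2.22-fold (1.15, adjusted p = 0.0047). Without any 1 of the 4 in vitro libraries only Actc1 stayed called. Ldb3, Csrp3 and Mybpc3 then had adjusted p from 0.014 to 0.049, and Actn2 had 0.0151 and 0.0137 without in vitro replicate 1 and replicate 2 of 1 week and was not tested without either library of 2 weeks.

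Acta1 and Xirp1 were higher in vitro at 2 weeks in both libraries but were not called (log2 fold changes 1.87 and 0.99, adjusted p = 0.10 and 0.091). By voom, which called 5.82% of all genes in this comparison in either direction, 9 of the 10 were called higher at 2 weeks in culture. Xirp1 rose as well but was not called (1.59, adjusted p = 0.050). Those 9 include the genes under the FPKM filter. Ttn rose 2.82-fold (log2 fold change 1.49, SE 0.14, adjusted p = 4.6e-06). Nebl rose 3.54-fold (1.80, SE 0.31, adjusted p = 6.4e-04). Myoz2 rose 7.93-fold when its level at 1 week was set to a floor of 3 fragments per library (3.39, SE 0.84, adjusted p = 0.0074). The 95% exact binomial interval of its ratio was 4.32 to 45.6, which covers counting error only. Acta1 rose 3.71-fold (1.88, SE 0.20, adjusted p = 1.4e-05).

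In vivo, 0 of the 7 tested genes were called in either direction between the weeks, beside 1.23% of all tested genes called higher and 0.949% lower. At an unadjusted p under 0.05 there were 2 of the 7, Actc1 (log2 fold change 0.66, adjusted p = 0.13) and Csrp3 (-0.66, adjusted p = 0.073), and voom also called 0 of the 10. For Ldb3 and Mybpc3 the in vivo change was 0.21 (95% confidence interval -0.18 to 0.61) and 0.14 (-0.27 to 0.56), so that a doubling in vivo lay outside the interval for both. Acta1 had no stable direction in vivo: its change of -0.69 became 0.62 without in vivo replicate 1 of 2 weeks, and -2.0 with a call (adjusted p = 0.0029) without replicate 2.

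**Figure D4:**
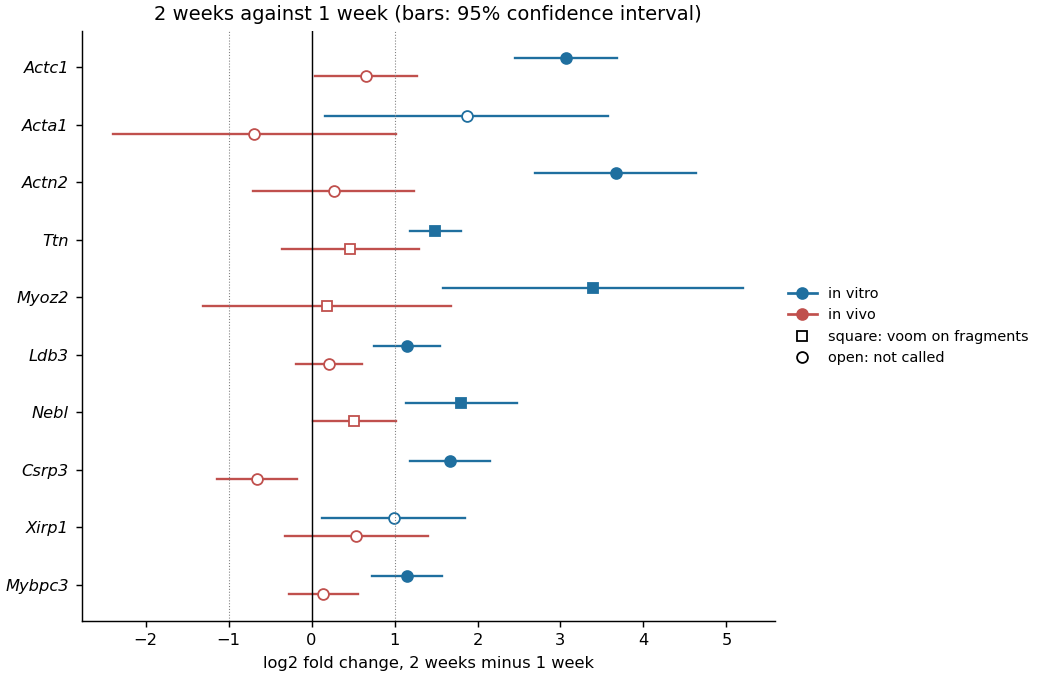
Log2 fold change of 2 weeks minus 1 week in vitro (blue) and in vivo (red) for the 10 genes, with 95% confidence intervals; circles are from limma on log2(FPKM + 0.1), squares from limma voom on fragments, and open symbols were not called. In vitro changes lay between 0.99 and 3.67, and in vivo changes between -0.69 and 0.66.

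Whether the gap that separates transplanted from cultured cells grew from 1 week to 2 weeks was tested directly as an interaction. It was called for Csrp3 alone (log2 difference -2.33, SE 0.29, adjusted p = 0.0064), beside 1.15% of all tested genes called lower and 0.573% higher in this contrast. That call was lost without any 1 of the in vivo libraries of 1 week or the in vitro libraries (adjusted p from 0.0204 to 0.0418). Actc1 (-2.41, SE 0.37, adjusted p = 0.0116) and Actn2 (-3.40, SE 0.58, adjusted p = 0.0166) had differences at least as large that missed the threshold. By voom the contrast was called for Actc1 (-2.42, adjusted p = 2.3e-04) and missed the threshold for Csrp3 (-2.70, adjusted p = 0.023). Without in vivo replicate 2 of 2 weeks Actc1 (-2.76, adjusted p = 0.0092) and Acta1 (-3.87, adjusted p = 0.0017) were called too. The values of Ldb3 (-0.94, adjusted p = 0.054), Mybpc3 (-1.01, adjusted p = 0.051) and Xirp1 (-0.45, adjusted p = 0.62) were not called, nor by voom were those of Ttn (-1.02, adjusted p = 0.12), Nebl (-1.29, adjusted p = 0.041) and Myoz2 (-3.20, adjusted p = 0.068).

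As a set the 10 genes summed to an FPKM of 7.83 and 9.12 in vivo at 1 week, 8.60 and 13.8 in vivo at 2 weeks, 57.0 and 62.2 in vitro at 1 week and 402 and 354 in vitro at 2 weeks. Actc1 made up 33.7% and 44.7% of that sum in vivo at 1 week, 47.7% and 48.4% in vivo at 2 weeks, 60.9% and 61.2% in vitro at 1 week and 80.7% and 81.4% in vitro at 2 weeks, so the sum mostly follows that gene in culture. Without Actc1 the sum of the other 9 was still 5.19 and 5.04 in vivo and 22.3 and 24.1 in vitro at 1 week, and 4.50 and 7.10 in vivo and 77.5 and 65.8 in vitro at 2 weeks.

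The shapes over the 8 libraries were compared by the root mean square difference of log2(FPKM + 0.1), each gene centred on its own mean, in log2 units. The closest pair was Ldb3 and Mybpc3 at 0.19, and the next Nebl and Myoz2 at 0.60. Actc1 was nearest to Csrp3 at 0.77, and Xirp1 was nearest to Nebl at 0.84 and 3.55 from both Actc1 and Csrp3. Among 13098 protein-coding genes outside the 10, those most like Actc1 were Prl7b1 (0.26), Myl7 (0.36), the atrial myosin light chain, and Tnnc1 (0.42), cardiac troponin C. Myl7 had an FPKM of 5.94 and 6.38 in vivo and 54.6 and 65.0 in vitro at 1 week, and 9.61 and 23.0 in vivo and 594 and 475 in vitro at 2 weeks. Prl7b1, of the prolactin family, was at 0 in 3 of the 4 in vivo libraries and reached 6.96 and 5.49 in vitro at 2 weeks. The nearest to Acta1 were Ifi27l2b (0.49), Tox2 (0.52) and Tnfsf18 (0.52), and those nearest to Ttn were Ypel2 (0.11), Klhl21 (0.12) and Pard6b (0.12), where the pseudocount flattens Ttn. These distances describe 8 libraries of 4 groups and carry no test.

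Other genes of the same structures, in lists of 67 genes without the 10, were less uniform. Of the 47 tested, in vivo samples had 9 called lower against 7 higher at 1 week, and at 2 weeks 17 lower against 5 higher, with medians of -0.21 and -0.75. All tested genes, the background for these counts and those of each list, gave 5.07% lower and 7.79% higher for 1 week, then 8.05% lower and 9.02% higher for 2 weeks. Several of the list counts lay near those shares, such as 2 of 22 or 1 of 13. In the titin and M-band list, 13 genes were tested, of which 6 were lower and 1 higher at 1 week, and 9 lower with 1 higher at 2 weeks (medians -1.55 and -2.42). Of 22 tested Z-disc genes, 2 were lower with 5 higher at 1 week, and 5 lower with 4 higher at 2 weeks (medians -0.12 and -0.36). Of 8 thin filament genes, 1 was lower with 1 higher at 1 week, and 3 lower with 0 higher at 2 weeks (medians -0.18 and -0.42). Mybphl, Trim63, Rbm20, Smyd1, Myom2 and Mybpc2 of the titin and M-band list reached an FPKM of 0.5 only in in vitro libraries. The same held for Actn3 and Synpo2l of the Z-disc list. Such genes could be tested only by being higher in vitro, so these counts and medians are descriptions. The counts of higher genes depended on the scaling between libraries, as they became 3 at 1 week and 3 at 2 weeks with that scaling undone.

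Close relatives of the 10 genes went in both directions. Csrp2, the smooth muscle relative of Csrp3, was higher in vivo at both weeks (log2 fold changes 4.17 and 3.13, adjusted p = 1.4e-07 and 3.4e-07), with an FPKM of 169 and 159 in vivo and 8.83 and 9.19 in vitro at 1 week. Actn3, the fast skeletal relative of Actn2, was lower (-4.54 and -4.94, adjusted p = 1.3e-06 and 8.8e-07) and, unlike Actn2, was already at 8.48 and 7.66 in vitro at 1 week. Mybphl, a relative of Mybpc3, was listed at 0 in all 4 in vivo libraries and had 39 and 41 fragments in vitro at 1 week and 82 and 114 at 2 weeks. The actin-organizing genes Fhod3 and Lmod2 differed: Fhod3 was lower at both weeks (-2.55 and -3.58, adjusted p = 2.2e-05 and 4.0e-06), and Lmod2 was higher at 1 week (3.57, adjusted p = 1.8e-04) and not called at 2 weeks (0.30), when it had 34 and 36 fragments in vivo and 41 and 29 in vitro. Palld, an actin-bundling Z-disc and stress fibre protein, was higher at 1 week (1.92, adjusted p = 3.6e-06). At 2 weeks Obsl1 (1.39, adjusted p = 5.1e-05) and Pdlim3 (1.35, adjusted p = 4.6e-05) were higher and the myosin chaperone Unc45b was lower (-4.35, adjusted p = 8.2e-07). The week given for Palld, Obsl1, Pdlim3 and Unc45b is that in which they ranked among the 3 largest called rises or falls. Each had the same direction at the other week. The mean FPKM of Palld at 2 weeks was 25.9 in vivo and 12.8 in vitro. At 1 week the means in vivo and in vitro were 15.1 and 6.37 for Obsl1, 48.9 and 20.7 for Pdlim3 and 1.00 and 4.37 for Unc45b.

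**Figure D5:**
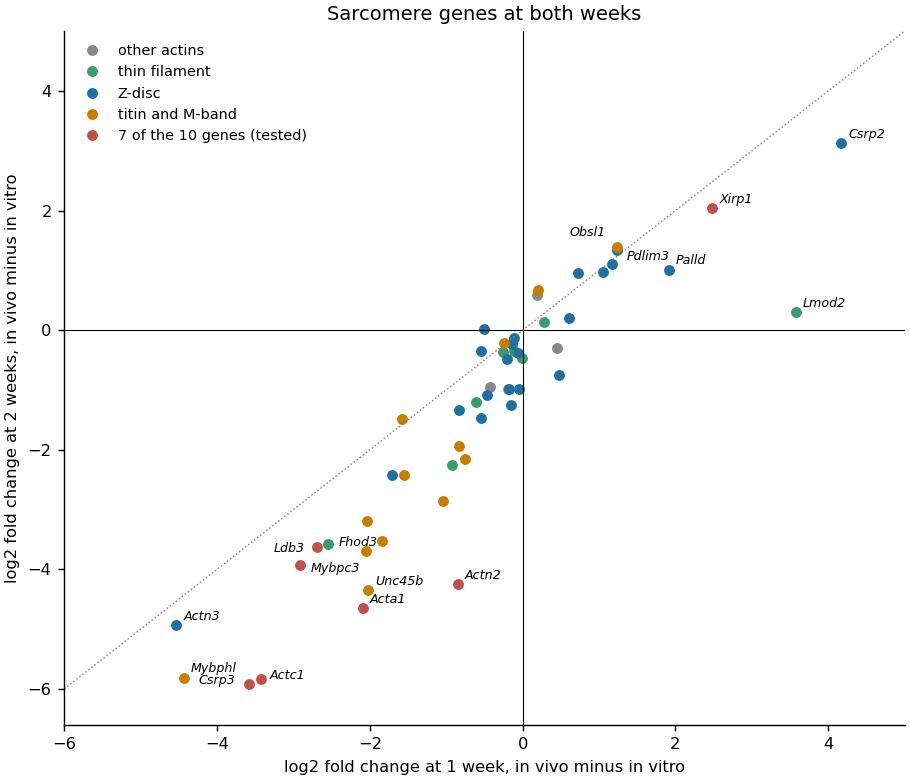
Log2 fold change of in vivo minus in vitro at 1 week (x axis) and 2 weeks (y axis) for 7 of the 10 genes and 47 other sarcomere genes tested, coloured by list; the dotted line marks equal values at both weeks. Actc1, Csrp3, Actn2 and Acta1 lay well under the line, and Csrp2 at 4.17 and 3.13 and Xirp1 at 2.49 and 2.04 lay above 0 on both axes.

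The delivered factors were present in every group, though gene counts cannot tell a transgene from the cell's own gene. Called differences among them were Sall4, lower in vivo at both weeks (log2 fold changes -1.11 and -1.65, adjusted p = 0.0059 and 8.1e-04), and Myocd, lower at 2 weeks (-1.22, adjusted p = 3.5e-04). Myocd had a value of -0.95 at 1 week, Gata4 of -0.56 and -0.86, Tbx5 of -0.57 and -0.53, Mef2c of -0.04 and 0.11 and Srf, the partner of myocardin, of 0.05 and -0.55, none of them called. Between the weeks in vitro none of these 6 genes was called by limma, with log2 fold changes of 0.77 for Srf (adjusted p = 0.0016), 0.35 for Gata4 (0.016), 0.09 for Myocd (0.65), -0.01 for Sall4 (0.98), -0.09 for Mef2c (0.61) and -0.26 for Tbx5 (0.29). Srf and Gata4 were higher in both libraries of 2 weeks than in both of 1 week, Srf at an FPKM of 20.7 and 21.9 and then 36.7 and 36.1, and Gata4 at 52.6 and 55.4 and then 73.2 and 64.5. The part of factor level in the actin, titin and Z-disc results was not tested.

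Markers of other cell types moved with the same groups, and their part in these results was not tested. Of all tested genes, 5.07% were called lower and 7.79% higher in vivo at 1 week, then 8.05% and 9.02% at 2 weeks. A marker count such as 1 of 10 lay near those shares. Myh6, Myl3, Myl1 and Myh1 passed the FPKM filter only through in vitro libraries, and Pln and Myl2 only through in vivo libraries. Such genes could be tested only by being higher on that side, so the marker counts are descriptions. The cardiomyocyte markers, with none of the 10 genes among them, summed to an FPKM of 102 to 120 in vivo and 299 to 325 in vitro at 1 week and to 131 to 149 and 1084 to 1272 at 2 weeks, and of 18 tested 9 were called lower at 1 week and 12 at 2 weeks (1 and 2 higher). In vivo that sum was mostly Atp2a2, with a mean FPKM at 1 week of 83.0 in vivo and 103 in vitro. Myh6, the cardiac myosin heavy chain, was lower by -5.89 and -8.62 and Tnni3, cardiac troponin I, by -1.59 and -4.34 (log2 fold changes, all called). The markers called higher in vivo were Pln, phospholamban, at both weeks (2.51 and 3.97, adjusted p = 0.0011 and 1.1e-04) and Myl2, the ventricular myosin light chain, at 2 weeks (2.39, adjusted p = 0.0087, after 1.21 at 1 week, not called). Pln had 17 and 25 fragments in vivo and 1 in each in vitro library at 1 week, and 103 and 78 in vivo and 4 and 3 in vitro at 2 weeks. Myl2 had 14 and 17 fragments in vivo and 2 and 1 in vitro at 2 weeks. Fibroblast markers summed to 12447 to 13277 in vivo and 3117 to 3256 in vitro at 1 week, and to 10193 to 11618 and 2135 to 2148 at 2 weeks, with 6 of 10 called higher in vivo at each week. That sum was mostly Col1a1, Col1a2, Col3a1 and Postn. At 1 week the mean FPKM of Thy1 was 23.4 in vivo and 39.4 in vitro, and that of Ddr2 22.3 and 34.2. That of Pdgfra was 20.85 and 19.99. Macrophage markers were detected at high levels in every sorted library, all 10 of them in each, and their sum was lower in vivo (1911 to 3118) than in vitro (4879 to 6021), with 1 of 10 called lower at 1 week and 6 at 2 weeks. The sum was carried mostly by Lyz2 (mean FPKM at 1 week 1392 in vivo against 3794 in vitro), the 1 marker called at 1 week, when Ptprc (log2 fold change 0.15), Csf1r (0.04) and C1qa (-0.01) were not called. Endothelial markers summed to 72.9 to 80.5 in vivo and 19.8 to 20.7 in vitro at 1 week, and to 63.8 to 70.7 and 40.2 to 47.7 at 2 weeks. Of these 6 markers 5 were called higher in vivo at 1 week and 2 at 2 weeks. In vitro 4 of the 6 were called higher at 2 weeks than at 1 week, beside 2.76% of all tested genes. For smooth muscle, 7 markers including Acta2 and Actg2 summed to 505 to 686 in vivo and 855 to 966 in vitro, with 1 called lower at 1 week and 0 at 2 weeks. Skeletal muscle markers summed to 4.51 to 6.54 in vivo, 10.9 to 11.7 in vitro at 1 week and 58.7 to 64.3 in vitro at 2 weeks, with 3 of 7 tested called lower at 1 week and 5 at 2 weeks. The skeletal muscle regulators Myod1 and Myog had 0 fragments in all 4 in vitro libraries and at most 2 in any in vivo library, so the rise of Acta1 in culture came with neither of them detected.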

How the data were processed

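RNA from sorted eGFP+ cells was made into mRNA libraries with a SMARTer kit by a sequencing provider (Novogene). The submitters' processing notes name CASAVA, HISAT2 2.0.5 and mm10; the counting tool and its strand setting are not given in the sources used here. Each deposited value is an FPKM, made by the authors' provider per gene and library. Multiplied by gene length, 100% of the values under 1000 fragments came out as whole fragments (tolerance 0.01), which also gave the size that each library had been scaled to. That size was 0.863 to 1.15 times the fragments on genes, so a scaling between libraries is built in. Gene coordinates are those of the table; 98.3% of the 54409 identifiers shared with GENCODE vM21, and 10 of the 10 genes, had the same start and end.

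Values were compared as log2(FPKM + 0.1) with limma 3.58.1 in R 4.3.3 (4 groups, all 8 libraries, moderated variances with an intensity trend, Benjamini-Hochberg over all tested genes); fold changes on this scale understate those of low genes. Limma voom was run on the fragments with the same library sizes. The authors' own test was not repeated. Folds in the text are ratios of mean FPKM. Where no library of a group had more than 3 fragments, a floor of 3 per library took the place of its level. That floor is no error bound, and the exact binomial intervals cover counting error only. Besides the 10 genes, the named genes were the 3 with the largest called rise and fall among the listed sarcomere genes at each week, the other actins, the factors, Myh6, Tnni3, Myod1, Myog and the 3 nearest genes to Actc1, Acta1 and Ttn; Cx3cr1 was added after its overlap with Xirp1 was seen, and Xirp2, Pln, Myl2, Lyz2, Ptprc, Csf1r and C1qa after their values were seen. The 10 genes and all lists were chosen with earlier results of these data known, and all alternatives but the voom fit on fragments were fixed beforehand. The fit was tested on simulated data. Promoters and motifs were read with pandas 2.3.3 and numpy 2.4.6 in Python 3.11.15, and plots were drawn with matplotlib 3.10.9. Replicates of a group differed by more than counting noise (chi-square per gene 4.25 to 9.22), so each library was counted once.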

Additional observations from a re-analysis of the deposited data

Results flagged for a closer look

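Csrp3 was lower in vivo by a log2 fold change of -3.59 at 1 week but of -5.91 at 2 weeks, and the interaction between place and week was -2.33 (SE 0.29, adjusted p = 0.0064, limma). It rests on 7 fragments in each in vivo library of 1 week and 4 and 2 in those of 2 weeks. Among the 7 tested genes of the 10 it was the only one called in that contrast, and Actc1 and Actn2 had values of -2.41 and -3.40 that missed the threshold.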

How the results depend on the processing

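Alternatives changed mostly the calls close to the thresholds. The 1 gene of the 10 called higher in vivo, Xirp1, became 0 at both weeks with a pseudocount of 1 and with the stricter filter (4 or more libraries at an FPKM of 1 or above), which removes it, and 0 to 1 with 1 library left out; with voom on genes of at least 10 fragments it became 2 at 1 week, Nebl being added. The 5 called higher over time in vitro became 3 with no filter and with the replicate block, 9 with that voom fit and 1 to 6 with 1 library left out. The 0 called lower over time in vivo became 0 to 1 with 1 library left out. The 1 called in the interaction became 3 with a pseudocount of 1, with an adjusted p under 0.05 and with protein-coding genes only, 2 with the stricter filter, 0 with a pseudocount of 0.01, no filter, quantile normalization, no variance trend or the replicate block, and 0 to 3 with 1 library left out. For the 10 genes, counts called lower in vivo at each week stayed within 1.5 times in every alternative run. With the scaling between libraries undone, the median of all genes moved to -0.34 at 1 week and -0.32 at 2 weeks, the share of calls that were higher fell from 60.6% to 36.8% and from 52.8% to 33.1% (54.8% and 50.2% with quantile normalization), and the sarcomere genes called higher went from 7 to 3 and from 5 to 3; the 17 called lower at 2 weeks became 10 with the stricter filter. Signs turned for the change of Acta1 over time in vivo (0.62 to -2.0 with 1 library left out) and for the interaction of Xirp1 (0.087 with a pseudocount of 1). Over single genes and alternatives, 644 values kept their direction and side of the threshold, 50 lost a call, 22 gained one and 2 reversed; apart from what is described here, the cause was not tested.

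Replicate numbers did not pair the libraries: the correlation of same-numbered deviations between groups across genes, which are not independent replicates, was -0.048 to -0.011, so the replicate block was an alternative only. Under it Ldb3 (adjusted p = 0.0116) and Mybpc3 (0.0104) lost their calls over time in vitro. With 2 libraries per group and few fragments in vivo for Actn2 and Csrp3, depth limits how exactly their in vivo levels can be told from 0.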
